A study of Mus musculus with 5 samples.

Results

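The 10 genes described here encode transcription factors that define the pancreatic beta cell: Pdx1, Nkx6-1, Nkx2-2, Neurod1, Mafa, Pax6, Isl1, Foxa2, Foxo1 and Rfx6. They were taken by name from a list, not by their values, and all 10 were found among the 23951 genes of the table and had been tested by the authors, who tested 13264 genes in all. RNA-seq was done on sorted beta cells of mice in 2 groups. The p16 group was 3 samples from Ins-rtTA/tet-GFP/tet-p16ink4a mice, whose beta cells express green fluorescent protein and p16INK4a, a cell cycle inhibitor that acts on the cyclin D kinases. The GFP group was 2 samples from Ins-rtTA/tet-GFP control mice, whose beta cells express the fluorescent protein alone. Mice of both groups received tetracycline for 10 days, and in both the transgenes depend on a transactivator driven by an insulin promoter. Fluorescent cells were then sorted from dissociated islets. Per the study's design text the cells came from 3 p16 and 2 control mice, but the labels tie no sample to 1 mouse, so p-values measure the spread between these samples, which may be technical. The sources used here do not give age, sex or strain.

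These factors work as a network in which each binds regulatory DNA of several others and of the insulin genes. Pdx1 and Neurod1 bind the insulin promoter together with Mafa, and Nkx6-1 and Nkx2-2 hold the beta-cell programme against those of other islet cells. Isl1, Pax6, Neurod1, Nkx2-2 and Rfx6 are shared more widely among the endocrine cells of the islet. Mafa and Nkx6-1 are restricted to beta cells in the adult mouse islet and Pdx1 to beta and delta cells. Loss of these factors from mature mouse beta cells lowers insulin secretion and, for several of them, opens genes of other lineages.

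Values are the authors' FPKM (fragments scaled by transcript length and library size), 1 per group and gene. The spread between samples and the depth of each library are not given in the table, so no SD is printed. Whether a difference passed is taken from the q-value in the authors' deposited table, with 0.05 as the threshold. Cdkn2a, which encodes p16INK4a, stood at 34.6 FPKM in p16 and 0.657 FPKM in GFP, which matches the labels. Beta-cell markers were high in both groups, and of 4 tested 1 was called, Slc2a2, which was lower and is described with the effector genes. G6pc2, the islet glucose-6-phosphatase gene, stood at 2327 FPKM in p16 and 3012 FPKM in GFP and did not pass. Ins1, Ins2 and Iapp carry no estimate: they have a status for too many fragments and a listed 0.

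With p16, 1 of the 10 factors was lower and none was higher by the q-values of the authors' deposited table. Across all tested genes 4.32% were higher and 1.1% lower, or 5.42% in either direction, so a count of 1 in 10 is near the background. Among the 3946 tested genes within the factors' own range of mean FPKM, 17.8 to 178, the shares were 3.09% higher and 1.42% lower. At an unadjusted p below 0.05, 2 of the factors were higher and 1 was lower, against 10.2% and 7.01% of all tested genes, which is again near the background. Summed over the 10 genes the level was 948.1 FPKM in p16 and 949.4 FPKM in GFP, so the total was nearly equal while single genes had unequal values. Values were higher with p16 for 6 factors and lower for 4, with a median log2 ratio of 0.21, against -0.02 over all tested genes. By chromosome, Neurod1, Nkx2-2, Pax6 and Foxa2 lie on 2, Nkx6-1 and Pdx1 on 5, and the rest on chromosomes of their own among the 10.

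Isl1 was the factor that fell. This LIM-homeodomain protein is needed for the making of all islet endocrine cells and for insulin secretion by mature beta cells. It was measured at 41.7 FPKM in p16 and 76.8 FPKM in GFP, which is 1.84-fold lower, or a log2 ratio of -0.88 (q = 0.0257 in the authors' deposited table). The gene lies on chromosome 13, from 117088478 to 117099896, in the mm9 build, and no other gene in the table has the same locus. An approximate standard error of the log2 ratio, its size divided by the normal quantile of the authors' p, was 0.27, with a 95% interval from -1.41 to -0.35. The deposited test statistic of Isl1, -2.12, is smaller than the quantile of -3.28 that belongs to its p. Read as a normal quantile, that statistic gives an interval from -1.70 to -0.07, and an adjusted p of 0.672 over the tested genes, so the call rests on the deposited p. A correction for GC content and transcript length, described with the other factors, also ended the call. In bulk samples, fewer cells of a type and less RNA per cell cannot be told apart.

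Pdx1, the master regulator of pancreas formation and an activator of the insulin genes, had the largest positive ratio of the 10. It stood at 119.6 FPKM in p16 and 67.6 FPKM in GFP, 1.77-fold, which missed the threshold (q = 0.0996 in the authors' deposited table). Its approximate 95% interval ran from 1.16-fold to 2.69-fold by the p-value and from 0.933-fold to 3.35-fold by the test statistic. The table places Pdx1 on chromosome 5, from 148040174 to 148086725 in mm9, a span that it shares with the transcript 2210019I11Rik. That neighbour had 16.8 FPKM in p16 and 26.0 FPKM in GFP. The neighbours pointed opposite ways, and since the sources used here do not say whether counting used strand, their reads may have been mixed. Isl1 and Pdx1 thus mark the ends of the range among the 10 factors.

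The bases before the start site are printed for this pair because it holds the factor that passed and the one nearest to passing in the other direction. The sequences are RefSeq promoters of the GRCm38.p6 build, 250 bases ending just before the gene's start, read 5′ to 3′ on the gene's strand, with each CpG in capitals. Isl1 is on the minus strand at chr13:116309689-116309938 and Pdx1 on the plus strand at chr5:147269847-147270096.
Isl1: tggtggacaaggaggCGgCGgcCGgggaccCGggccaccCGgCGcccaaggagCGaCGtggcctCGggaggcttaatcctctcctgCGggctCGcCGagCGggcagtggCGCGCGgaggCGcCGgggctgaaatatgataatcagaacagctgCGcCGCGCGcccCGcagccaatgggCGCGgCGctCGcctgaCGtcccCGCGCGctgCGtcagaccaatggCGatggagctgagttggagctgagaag
Pdx1: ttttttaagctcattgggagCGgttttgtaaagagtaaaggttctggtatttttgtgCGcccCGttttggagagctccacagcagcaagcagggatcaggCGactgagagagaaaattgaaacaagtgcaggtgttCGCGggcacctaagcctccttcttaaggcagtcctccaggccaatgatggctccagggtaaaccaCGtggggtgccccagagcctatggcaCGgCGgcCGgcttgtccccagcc
The Isl1 window had 33 CpG and a GC content of 71.2%, and the Pdx1 window had 10 CpG and 54.8%. Their transcripts had the opposite order, with 45.7% GC for Isl1 and 55.7% for Pdx1. Over all 32851 windows of the table the median was 6 CpG and 52.4%, and 4.03% of windows held at least as many CpG as Isl1. RefSeq windows were matched for 9 of the 10 factors, with 12 start sites in all, of which Rfx6 had the lowest count at 2 CpG. p16INK4a acts upstream of the E2F factors, so the words TTTCCCGC, TTTGGCGC, TTTCGCGC and TTTGCCGC, which E2F proteins are known to bind, were looked for on both strands. None was present in the 12 windows, against 1.86% of the 32851 windows, which says only that these letters are not there.

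**Figure D1:**
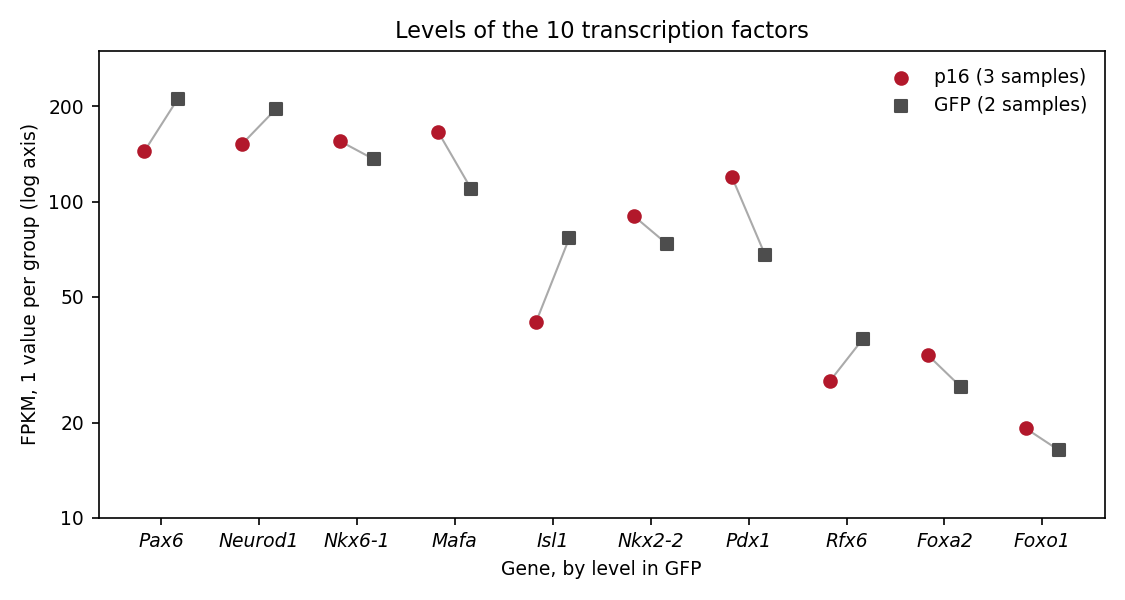
FPKM of the 10 factors on a log axis, with p16 (red circles, 1 value for 3 samples) left of GFP (grey squares, 1 value for 2 samples) for each gene and a line joining the pair; there are no error bars because the table has none. Pax6 leads in GFP at 211.1 FPKM and Mafa leads in p16 at 166.0 FPKM.

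The other factors shared more widely among islet endocrine cells mostly had lower values with p16, and none passed. Pax6, a paired-domain and homeodomain protein that keeps beta cells from taking on other endocrine fates, had 144.3 FPKM in p16 and 211.1 FPKM in GFP (q = 0.311 in the authors' deposited table). Its log2 ratio was -0.55, with an approximate 95% interval from -1.11 to 0.02. Pax6 shares its locus in the table with the RNAs Pax6os1, at 7.22 FPKM in p16 and 11.6 FPKM in GFP, and Paupar, at 2.41 FPKM in p16 and 2.58 FPKM in GFP. Both are low beside Pax6.

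Neurod1, a basic helix-loop-helix activator of the insulin genes, had 152.4 FPKM in p16 and 195.8 FPKM in GFP (q = 0.543 in the authors' deposited table). Rfx6, a winged-helix factor that maintains calcium channel and secretion genes in beta cells, had 27.1 FPKM in p16 and 36.9 FPKM in GFP (q = 0.400 in the authors' deposited table). The log2 ratios were -0.36 and -0.45, with approximate 95% intervals from -0.90 to 0.18 for Neurod1 and from -0.97 to 0.08 for Rfx6. Nkx2-2, a homeodomain repressor of non-beta genes, pointed the other way, at 89.9 FPKM in p16 and 73.3 FPKM in GFP (q = 0.677 in the authors' deposited table). Its locus also holds Nkx2-2os, at 3.24 FPKM in p16 and 3.34 FPKM in GFP, and 6430503K07Rik, at 8.13 FPKM in p16 and 5.05 FPKM in GFP. So 4 of the 5 more widely shared factors had the lower value with p16, and Isl1 alone among them passed the test.

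The 3 factors that mark beta cells most closely all had higher values with p16, and none passed. Mafa, which comes on as beta cells mature and drives insulin transcription, had 166.0 FPKM in p16 and 109.3 FPKM in GFP, 1.52-fold (q = 0.241 in the authors' deposited table). Its locus in the table, on chromosome 15 from 75577273 to 75578352 in mm9, is 1080 bases long. The GENCODE transcript of Mafa, which gave its GC content and length, has 2739 bases. What this difference does to its level, its ratio or its ratio with the trend removed was not tested. Nkx6-1, a homeodomain repressor needed for beta-cell insulin content and for silencing alpha-cell genes, had 155.2 FPKM in p16 and 136.3 FPKM in GFP (q = 0.808 in the authors' deposited table). Together with Pdx1 these genes summed to 440.8 FPKM in p16 and 313.3 FPKM in GFP. The 5 more widely shared factors summed to 455.4 FPKM in p16 and 593.9 FPKM in GFP. The contrast between these groups of factors was not planned, and it was not tested, since the table has no values per sample. With the GC and length trend described further on removed, the log2 ratio was 0.58 for Pdx1, 0.02 for Mafa and -0.25 for Nkx6-1. It was then -0.68 for Isl1, -0.62 for Pax6, -0.27 for Rfx6, -0.10 for Neurod1 and 0.06 for Nkx2-2. The intervals by the p-value ran from 1.03-fold to 2.24-fold for Mafa and from 0.788-fold to 1.65-fold for Nkx6-1. By the test statistic they ran from 0.834-fold to 2.77-fold for Mafa and from 0.631-fold to 2.05-fold for Nkx6-1, and both then include no difference.

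Foxa2 and Foxo1, forkhead factors with wider roles, were the least abundant besides Rfx6. Foxa2 opens chromatin in endoderm and maintains Pdx1 and genes of secretion, and it had 32.7 FPKM in p16 and 25.9 FPKM in GFP (q = 0.579 in the authors' deposited table). Foxo1, which insulin signalling keeps out of the nucleus and which protects mouse beta cells from losing their identity under metabolic stress, had 19.2 FPKM in p16 and 16.3 FPKM in GFP (q = 0.741 in the authors' deposited table). For Foxo1 the approximate 95% interval ran from 0.816-fold to 1.69-fold and for Foxa2 from 0.871-fold to 1.83-fold. Both ratios were positive, and both intervals include no difference.

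**Figure D2:**
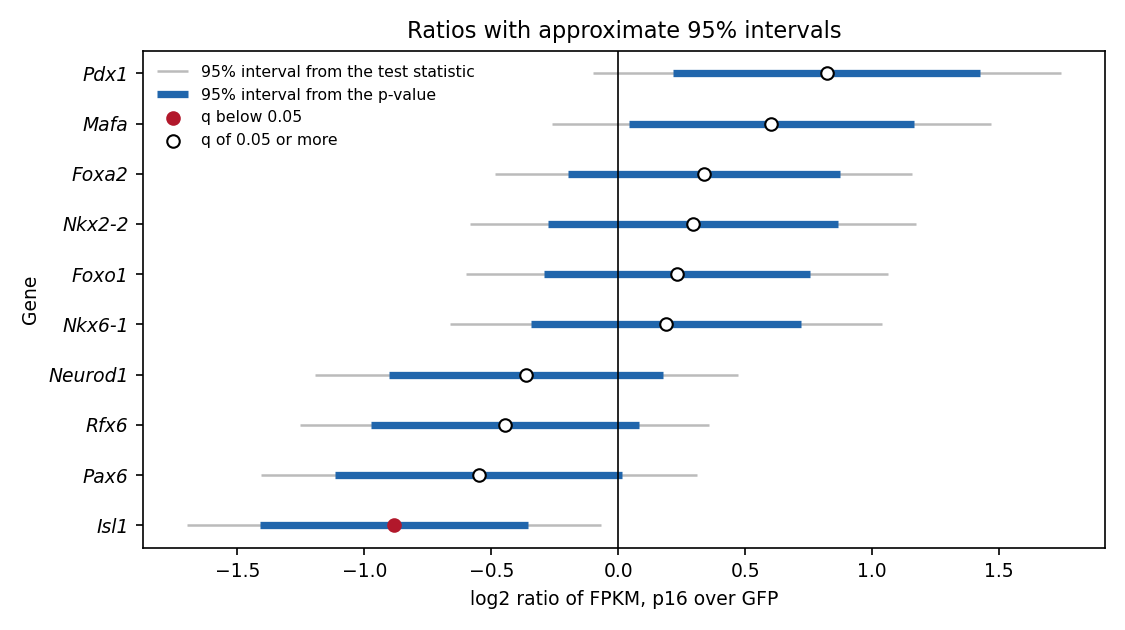
The log2 ratio of FPKM, p16 over GFP, for each factor, with approximate 95% intervals from the authors' p-value (thick blue) and from the authors' test statistic (thin grey); the filled point has a q below 0.05. Isl1, at -0.88, is the filled point, and its grey interval ends at -0.07.

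The order of the factors differed between the groups. In p16 it was Mafa, Nkx6-1, Neurod1, Pax6, Pdx1, Nkx2-2, Isl1, Foxa2, Rfx6 and Foxo1, and in GFP it was Pax6, Neurod1, Nkx6-1, Mafa, Isl1, Nkx2-2, Pdx1, Rfx6, Foxa2 and Foxo1. In p16 the 4 highest lay between 144.3 and 166.0 FPKM, and with no spread in the table, neighbours in either order cannot be separated. Nkx2-2 was in sixth place and Foxo1 in last place in both groups. All 10 were well expressed: Mafa was above 97.8% of the genes listed above 0 in p16 and above 95.8% in GFP, while Foxo1 was above 77.0% in p16 and 73.6% in GFP.

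The ratios of the factors ran with the GC content of their transcripts, as did those of other genes. The 6 factors with the higher value in p16 had transcripts of 48.5% to 65.0% GC, and the 4 with the lower value had 43.6% to 49.3%. Mafa, at 65.0%, is richer in GC than 99.3% of tested genes with a transcript matched, and Neurod1, at 43.6%, is the poorest of the 10. Over the 10 factors the Spearman rho of log2 ratio with GC content was 0.64, and over 3808 tested genes in the factors' range of FPKM it was 0.57. These are correlations across genes of 1 comparison, which share libraries and are not independent.

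Among tested genes in that range of FPKM, the median log2 ratio was -0.38 in the lowest of 5 equal bins of GC content, where Neurod1 lies, and 0.24 in the highest, where Foxa2, Mafa and Nkx6-1 lie. In the lowest of these bins 0.504% of genes were called higher and 3.65% lower, and in the highest 7.71% were called higher and 0.701% lower. Isl1 and Rfx6 fall in the next-lowest bin, with a median of -0.24. After a smooth dependence on GC content and transcript length was subtracted, the log2 ratio was -0.68 for Isl1, -0.62 for Pax6 and 0.58 for Pdx1, and these were the 3 factors farthest from 0. Mafa had 0.02, Neurod1 -0.10, Foxa2 0.05 and Nkx2-2 0.06, close to the trend, and Nkx6-1 turned to -0.25. The median of the 10 was then -0.04, against -0.10 over all tested genes. The signed quantile of Isl1, which is the normal quantile of its p with the sign of its ratio, was then -2.55, short of the quantile at which q reaches 0.05, so no factor passed. What made the ratios of all genes move with GC content was not tested.

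**Figure D3:**
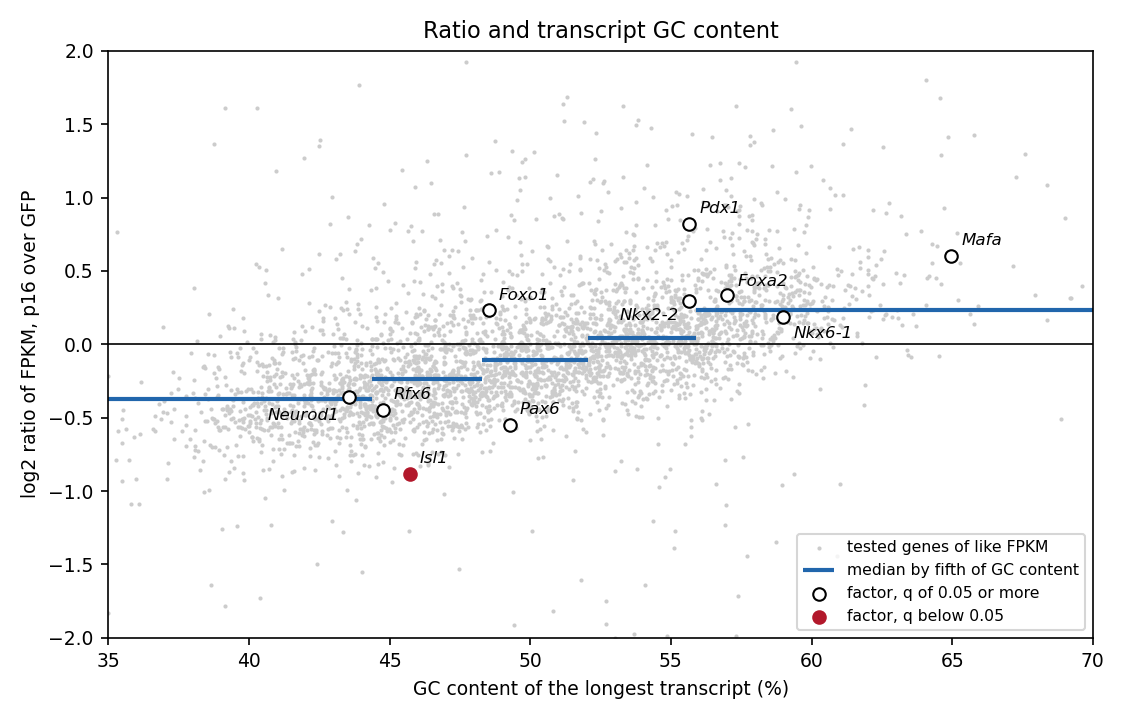
The log2 ratio of FPKM, p16 over GFP, against transcript GC content in percent, for the 10 factors (large points, filled where q is below 0.05) and for tested genes of like FPKM (grey; values beyond the axes are not drawn), with blue bars at the median of each of 5 bins of GC content. The blue medians climb from -0.38 to 0.24, and Isl1, Pax6 and Pdx1 stand farthest from them.

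Related genes were read from 5 lists, chosen with earlier results of these data known. Of 25 tested genes in the list of further beta-cell factors and factors of maturity-onset diabetes of the young, 5 were higher and 0 lower by the q of the authors' deposited table, against 4.32% and 1.1% of all tested genes. At an unadjusted p below 0.05 these counts were 10 and 0, against 10.2% and 7.01% of all tested genes, and the median log2 ratio was 0.31. Mnx1, which keeps beta cells from a delta-cell fate in the mouse, rose to 17.4 FPKM in p16, against 7.45 FPKM in GFP (q = 0.00597 in the authors' deposited table). It was far less abundant than Mafa or Nkx6-1.

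Foxa3, of the family of Foxa2, reached 9.06 FPKM in p16, against 4.46 FPKM in GFP (q = 0.0328 in the authors' deposited table). Glis3, a zinc finger activator of insulin transcription, reached 17.4 FPKM in p16, against 9.12 FPKM in GFP (q = 0.0313 in the authors' deposited table). With the GC and length trend removed none of the 25 passed, and their median log2 ratio was 0.11. Other factors that act with the 10 did not pass: Insm1, a zinc finger factor of endocrine cells, had 168.9 FPKM in p16 and 108.4 FPKM in GFP (q = 0.178 in the authors' deposited table). Hnf4a, a nuclear receptor, had 29.2 FPKM in p16 and 18.7 FPKM in GFP (q = 0.154 in the authors' deposited table). Neurog3, the factor of endocrine progenitors that acts ahead of Neurod1, was low, at 1.48 FPKM in p16 and 0.792 FPKM in GFP (q = 0.372 in the authors' deposited table).

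Among partner factors and cofactors, 2 of 32 tested genes were higher and 0 lower by the authors' deposited table. The shares over all tested genes were 4.32% and 1.1%, so a count of 2 in 32 is near the background. At an unadjusted p below 0.05, 6 were higher and 1 was lower, against 10.2% and 7.01% of all tested genes. The 2 genes called by q were relatives of Rfx6. Rfx2 rose to 11.8 FPKM in p16, against 5.44 FPKM in GFP (q = 0.0174 in the authors' deposited table). Rfx5, a regulator of MHC class II genes, rose to 23.7 FPKM in p16, against 11.7 FPKM in GFP (q = 0.0152 in the authors' deposited table). Rfx6 itself had the lower value in p16, and the difference between the relatives was not tested. Of the other relatives, Rfx1 had 6.41 FPKM in p16 and 3.39 FPKM in GFP (q = 0.0541 in the authors' deposited table), and Rfx3, which drives genes of cilia, had 6.49 FPKM in p16 and 5.53 FPKM in GFP (q = 0.764 in the authors' deposited table). The median log2 ratio of the list was 0.21, or -0.01 with the GC and length trend removed.

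Foxo1 likewise stood beside relatives that differed in their values. Foxo6 rose to 12.4 FPKM in p16, against 5.76 FPKM in GFP (q = 0.0184 in the authors' deposited table). Among 19 tested FOXO relatives and genes known as FOXO targets the median log2 ratio was 0.23. At an unadjusted p below 0.05, 6 were higher and 1 was lower, against 10.2% and 7.01% of all tested genes. Against 4.32% and 1.1% of all tested genes, 4 of the 19 were higher and 0 lower by the authors' deposited table. Besides Foxo6 these were Pik3ip1, an inhibitor of phosphoinositide 3-kinase, at 11.5 FPKM in p16 and 4.41 FPKM in GFP (q = 0.00245 in the authors' deposited table), Ccng2 and Gadd45a. Ccng2, an atypical cyclin of resting cells, reached 26.7 FPKM in p16, against 12.7 FPKM in GFP (q = 0.00899 in the authors' deposited table). Gadd45a, a growth arrest gene that p53 also controls, reached 79.0 FPKM in p16, against 35.8 FPKM in GFP (q = 0.00441 in the authors' deposited table), and has the same locus in the table as E230016M11Rik. Pik3ip1, Ccng2 and Gadd45a passed also with the GC and length trend removed, and Foxo6, whose transcript is 69.1% GC, did not. Irs2, also in this list, pointed the other way, at 15.4 FPKM in p16 and 29.9 FPKM in GFP (q = 0.0683 in the authors' deposited table). Irs2 did not pass at 0.05 as deposited but was lower with that trend removed. Values were higher in p16 for 12 of the 19 genes and lower for 7. Foxo3, the most abundant relative of Foxo1, had 22.0 FPKM in p16 and 14.6 FPKM in GFP (q = 0.285 in the authors' deposited table), and Foxo4 had 6.73 FPKM in p16 and 7.84 FPKM in GFP (q = 0.780 in the authors' deposited table).

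Most factors of other lineages were low in both groups. Among 19 genes 11 had been tested, and all but 4 of the 19 had a mean below 1 FPKM. The most abundant was Gata6, at 8.69 FPKM in p16 and 6.01 FPKM in GFP (q = 0.345 in the authors' deposited table). Of the 11, 2 rose and 0 fell by the q of the authors' deposited table, with a median log2 ratio of 1.04. At an unadjusted p below 0.05 these counts were 5 and 0. Over all tested genes the shares were 4.32% higher and 1.1% lower by q, or 10.2% and 7.01% at that p. Nr5a2, an acinar and progenitor factor, was listed at 0.470 FPKM in p16 and 0.0512 FPKM in GFP (q = 0.0275 in the authors' deposited table). Sox9, a duct and progenitor factor, was listed at 0.492 FPKM in p16 and 0.122 FPKM in GFP (q = 0.0322 in the authors' deposited table). At such levels a fold depends on few fragments, and genes below 1 FPKM cannot be weighed against Pdx1 or Mafa. Ptf1a, the acinar factor, is listed at 0 in both groups.

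Effector genes of the beta cell, many of them targets of these factors, did not shift together. Of 45 tested, 3 rose and 2 fell by the q of the authors' deposited table, against 4.32% and 1.1% of all tested genes. At an unadjusted p below 0.05 there were 5 higher and 5 lower, against 10.2% and 7.01%. The median log2 ratio was -0.05. Slc2a2, the glucose transporter gene that Pdx1 activates, fell to 205.2 FPKM in p16, against 401.7 FPKM in GFP (q = 0.0242 in the authors' deposited table). Trpm5, a cation channel gene, fell to 17.7 FPKM in p16, against 42.6 FPKM in GFP (q = 0.00245 in the authors' deposited table). Fgfr1, a receptor gene that Pdx1 maintains in the mouse, reached 3.08 FPKM in p16, against 1.19 FPKM in GFP (q = 0.00597 in the authors' deposited table), and Dlk1, an imprinted gene, reached 1.44 FPKM in p16, against 0.401 FPKM in GFP (q = 0.0105 in the authors' deposited table). Of the 45, Trpm5 alone passed with the GC and length trend removed.

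**Figure D4:**
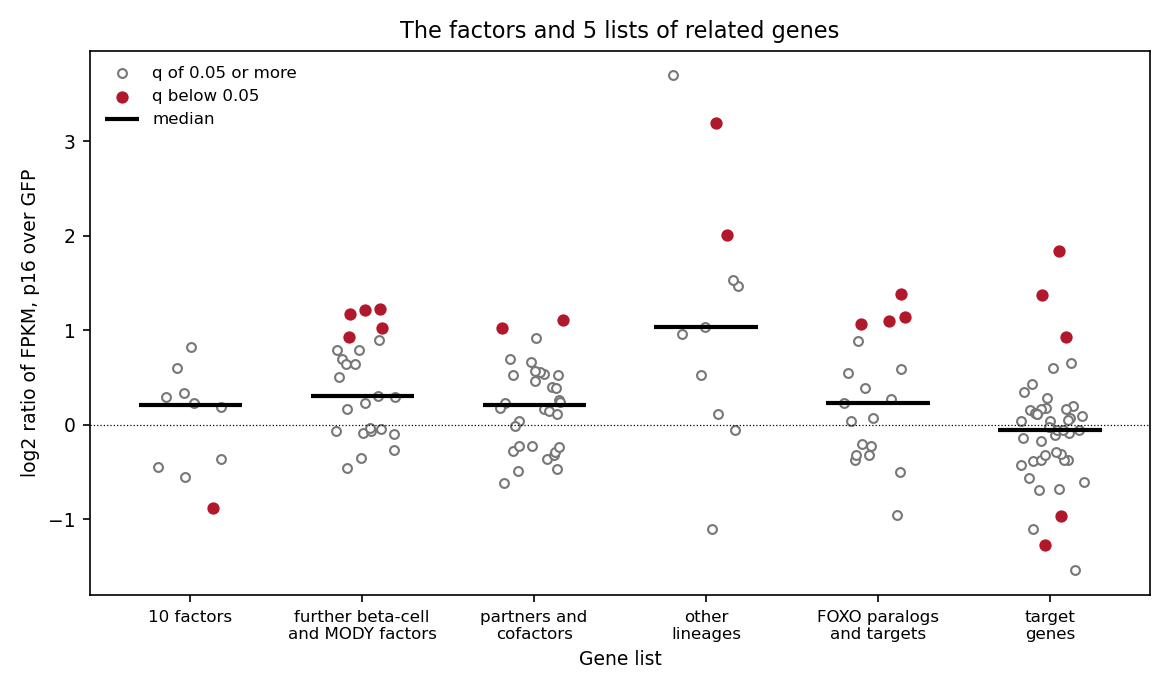
The log2 ratio of FPKM, p16 over GFP, for each tested gene of the 10 factors and of 5 lists of related genes; filled points have a q below 0.05 in the authors' deposited table and bars are medians. Isl1 is the filled point among the 10 factors, and the 5 filled points among further beta-cell factors all lie above 0.

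Other islet cells share several of these factors, so their markers are given beside them, as are those of duct cells, which lie outside the islet. The calls stand against 4.32% higher and 1.1% lower over all tested genes. Of 6 tested delta-cell markers the authors' deposited table calls 2 higher, and the 7 listed summed to 2804 FPKM in p16 and 1318 FPKM in GFP, of which somatostatin (Sst) made up most, at 2678 FPKM in p16 and 1244 FPKM in GFP. Both PP-cell markers, Ppy and Pyy, were higher, with a sum of 1217 FPKM in p16 and 569.5 FPKM in GFP. Of 8 tested alpha-cell markers 1 was higher, with a sum over the list of 2849 FPKM in p16 and 2232 FPKM in GFP, and glucagon (Gcg) stood at 2263 FPKM in p16 and 1642 FPKM in GFP. Of 7 tested duct markers 3 were higher and 1 lower, with a sum of 668.5 FPKM in p16 and 295.1 FPKM in GFP. Cldn4 made up 486.5 FPKM of it in p16 and 143.3 FPKM in GFP, and Krt7, which was not called, 151.5 FPKM in p16 and 134.0 FPKM in GFP. The 3 called higher were Cldn4, Spp1 and Sox9, and Sox9 was below 1 FPKM in both groups. Krt19 was the 1 called lower, at 1.79 FPKM in p16 and 5.75 FPKM in GFP (q = 0.0105 in the authors' deposited table). The duct markers thus did not move together. Of the factors active in some other islet endocrine cells too, Isl1, Pax6, Neurod1 and Rfx6 had lower values in p16. Nkx2-2 and the beta- and delta-cell factor Pdx1 had higher ones, as the hormones did. The 4 beta-cell markers with an estimate summed to 3164 FPKM in p16 and 4428 FPKM in GFP. G6pc2, which did not pass, made up 2327 FPKM of it in p16 and 3012 FPKM in GFP. Ins1, Ins2 and Iapp have no estimate, so this sum leaves them out and does not measure the beta-cell share. The part of other islet cells in the factors' values was not tested.

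Apart from the duct markers, markers of cells from outside the islet epithelium were low. Calls among them stand against the same 4.32% higher and 1.1% lower over all tested genes. The 6 endothelial markers summed to 0.570 FPKM in p16 and 0.530 FPKM in GFP, and Ptprc, the pan-leukocyte gene, was at 0.0269 FPKM in p16 and 0.00329 FPKM in GFP. The 8 stellate and fibroblast markers summed to 4.87 FPKM in p16 and 0.584 FPKM in GFP, with 2 of 2 tested genes higher, Col1a2 and Dcn, and the 10 acinar markers to 21.5 FPKM in p16 and 18.7 FPKM in GFP, with none of 8 called. Immune markers summed to 7.87 FPKM in p16 and 7.95 FPKM in GFP, with 1 of 2 tested genes higher, Cd68, and Cd3e at 0 in both. Schwann and neural markers summed to 9.35 FPKM in p16 and 8.50 FPKM in GFP, with none of 2 called. Each of these sums is below the level of Rfx6.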

How the data were processed

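RNA-seq was done on sorted beta cells in 3 p16 and 2 GFP samples. Per the submitters' processing notes, TopHat2, Cuffnorm and Cuffdiff were used with the mm9 build; the sources used here do not give versions, annotation, scaling or strand. The authors deposited a table that gives each gene 1 FPKM value per group, a p-value with its q-value, and a test statistic (a score). FPKM is not a count, so no count model was run, and depth is unknown, which limits the precision of low values. Benjamini-Hochberg adjustment of the deposited p-values over 13264 tested genes gave the deposited q-values to within 5.23e-07.

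The limma fit planned for values per sample was not possible with group values; the authors' calls at q below 0.05 were used, as planned for that case. The members and lists were chosen with earlier results of these data known. Log2 ratios were computed without a pseudocount. Named genes are all 10 members and, for every list, the called genes with the greatest log2(FPKM + 1) change, 6 at most, or the 2 most abundant where fewer than 2 are called. Insm1, Hnf4a, Neurog3, Rfx1, Rfx3, Foxo3, Foxo4, Irs2, Gata6 and Ptf1a were added after their values were seen. Some genes that the rule names are not reported here.

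The longest coding transcript in GENCODE M21 gave each gene's GC content and length and was used for nothing else; 95.1% of tested genes matched. Spline trends (4 degrees of freedom each) explained 23.5% of the variance of signed quantiles and 13.7% of that of log2 ratios. The scripts were tested on simulated data. Starts in the table were taken to count from 0, and 1 was added. Python 3.11.15, numpy 2.4.6, pandas 2.3.3, scipy 1.17.1, patsy 1.0.2 and matplotlib 3.10.9 were used. Alternatives covered thresholds, filters, pseudocounts, scaling, the GC and length trend and, added after the table was seen, the test statistic.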

Additional observations from a re-analysis of the deposited data

How the results depend on the processing

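With 1 value per group, leaving out replicates and limma could not be run. No paired analysis was possible because the table has no values per sample. Depth limits genes below 1 FPKM most.

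At a q below 0.10, 1 factor was higher (Pdx1) and 1 FOXO relative or target was lower. Of all 13264 tested genes, 753 were then higher and 272 lower. At a q below 0.01, no factor was lower (0), and the higher counts were 0 for partners, 3 for further beta-cell factors, 0 for other lineages and 1 for effector genes, with 1 effector gene lower; over all tested genes 311 were higher and 58 lower. With p adjusted over genes of a mean of at least 1 FPKM, 0 genes of other lineages were higher, since those called are below that level. At 5 FPKM this count was 0, that of effector genes higher was 1 and that of all tested genes higher was 298.

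With the GC and length trend removed, the counts were 0 factors lower, 1 partner higher, 0 further beta-cell factors higher, 1 FOXO relative or target lower, and 0 effector genes higher and 1 lower; over all tested genes 356 were higher and 96 lower. With the test statistic read as a normal quantile, an alternative chosen after seeing the data, 0 factors were lower, 0 genes were higher in each of the 5 lists, 0 effector genes were lower, and 127 of all tested genes were higher and 24 lower; the q of Isl1 was 0.672.

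Among 7 alternatives for the log2 ratio, covering pseudocounts of 0.1, 1 and 5, 3 scalings and the trend, 9 factors kept their sign in each, and Nkx6-1 turned to -0.25 without the trend. Isl1 ranged from -0.88 to -0.68, Pdx1 from 0.58 to 0.91 and Mafa from 0.02 to 0.76. The cause of these shifts was not tested.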
